A study of Mus musculus with 8 samples.

Results

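The genes that load and display peptides on MHC class II were measured in single immune cells of the mouse brain. They were taken by symbol, and all 10 were found among the 32285 genes of the count matrices: H2-Aa, H2-Ab1, H2-Eb1, Cd74, Ciita, H2-DMa, H2-DMb1, H2-DMb2, H2-Oa and H2-Ob. The cells were CD45.2+ cells sorted from perfused brains and prepared with the 10x Genomics 5′ kit, which tags every captured transcript with a molecular identifier (UMI). There were 8 libraries, 1 for each combination of genotype and treatment. WT mice were C57BL/6J. App NL-G-F mice carry humanized amyloid-β with the Swedish, Arctic and Iberian mutations knocked into their own App gene, so that every cell carries it. The labels gave an age of 16 weeks for all groups. Controls drank water, acute colitis followed 1 week of 2% dextran sulfate sodium (DSS), chronic colitis followed 3 cycles of 2% DSS and water of 5 days each, and food allergy followed injections and then feeding of ovalbumin. The mice had received anti-CD45 antibody intravenously, but its label was not analysed here, so cells in vessels and in tissue cannot be told apart.

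Class II molecules are heterodimers of an α and a β chain that show peptides from engulfed proteins to CD4+ T cells. H2-Aa and H2-Ab1 encode the chains of I-A, and H2-Eb1 the β chain of I-E, whose α gene is not expressed in C57BL/6 mice. The invariant chain, from Cd74, fills the groove until the vesicle, where H2-DM (H2-DMa with H2-DMb1 or H2-DMb2) exchanges its last fragment for a peptide and H2-DO (H2-Oa with H2-Ob) restrains H2-DM. CIITA, from Ciita, is the coactivator that turns the other genes on at a shared promoter module of S, X and Y boxes, bound by the RFX complex at X and by NF-Y at Y. Dendritic cells, B cells and macrophages are the professional users of the pathway, and in the brain such cells lie mainly at its borders.

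By the GENCODE vM21 annotation of GRCm38, 8 of the 10 genes lie on chromosome 17 between 34092340 and 34316674, a span of 224.3 kb, while Ciita lies on chromosome 16 (10480059 to 10528418). Promoters of 7 of the 10 were in the RefSeq table of GRCm38.p6 (8 entries, H2-DMa having 2), and those of H2-Ab1, Ciita and Cd74 were not among them. The Y box was searched as ATTGG and the first part of the X box as CCTNGNNAC, on both strands, in the 300 bases from 250 before to 50 after each start. ATTGG stood in 7 of the 8 entries and in 37.4% of all 32851 promoters, and CCTNGNNAC in 2 of the 8 entries and in 15.8% of all promoters. After the sequences had been seen, a looser pattern was counted, with at most 1 mismatch in CCTNGNNAC and 25 to 45 bases from its start to that of ATTGG. It was found in 6 of the members and in 5.11% of all promoters, and in its exact form in 2 members and 0.338% of promoters. These 6 promoters are shown because the levels described next set their genes apart while all 6 hold the looser pattern. That pattern was set after these sequences had been read, so its count cannot show that they share a module. Each line gives the 150 bases before the RefSeq start, which can differ from the GENCODE start, 5′ to 3′ on the gene's strand, with ATTGG (or CCAAT on the other strand) and the X stretch in capitals.
H2-Aa (chr17:34287824-34287973, minus strand): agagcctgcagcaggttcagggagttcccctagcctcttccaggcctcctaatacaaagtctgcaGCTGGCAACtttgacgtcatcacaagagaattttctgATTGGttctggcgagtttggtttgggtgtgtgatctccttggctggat
H2-Eb1 (chr17:34305717-34305866, plus strand): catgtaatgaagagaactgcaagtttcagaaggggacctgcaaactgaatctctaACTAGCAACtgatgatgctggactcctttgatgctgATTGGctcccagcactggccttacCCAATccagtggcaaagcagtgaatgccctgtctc
H2-DMb1 (chr17:34153041-34153190, plus strand): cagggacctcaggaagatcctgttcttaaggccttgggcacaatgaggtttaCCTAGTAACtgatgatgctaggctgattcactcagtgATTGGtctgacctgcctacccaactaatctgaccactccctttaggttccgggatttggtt
H2-DMb2 (chr17:34145099-34145248, plus strand): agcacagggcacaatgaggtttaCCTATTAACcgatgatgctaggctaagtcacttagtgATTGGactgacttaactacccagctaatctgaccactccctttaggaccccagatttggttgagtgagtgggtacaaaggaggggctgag
H2-Ob (chr17:34238755-34238904, plus strand): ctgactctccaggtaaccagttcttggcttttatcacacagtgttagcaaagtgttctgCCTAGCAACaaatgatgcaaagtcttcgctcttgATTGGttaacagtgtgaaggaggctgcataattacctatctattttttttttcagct
H2-Oa (chr17:34092229-34092378, plus strand): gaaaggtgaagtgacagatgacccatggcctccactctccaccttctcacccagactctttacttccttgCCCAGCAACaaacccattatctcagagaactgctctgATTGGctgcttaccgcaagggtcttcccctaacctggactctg
Positions in the X stretch are counted from 1 at the 5′ end of CCTNGNNAC, with the motif's base first. H2-DMb1 and H2-Ob matched it exactly, H2-Aa had C1G, H2-Eb1 C1A, H2-DMb2 G5T and H2-Oa T3C. The distance from X to Y was 37 bases in H2-Aa, H2-DMb1, H2-DMb2 and H2-Oa, 36 in H2-Eb1 and 34 in H2-Ob. Neither entry of H2-DMa held the pair. A match of letters is a description of the window and not of a bound factor.

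After new cell calls, 4875 to 7199 cells per library were kept, with 25617944 to 54618574 UMIs in them. Of their barcodes, 5.41 to 6.36% also stood in another library. Levels are given for cells with exactly 1 hashtag (the antibody tag that marked each sample in a library), as UMIs summed over the cells of a type in a library scaled to counts per 1e6 UMIs of those cells (CPM). Since the 5′ kit counts transcript ends, CPM is not scaled by gene length and compares molecules between genes. Clusters were named from marker lists with the 10 genes kept out of both, and the names stand for B cell-like, dendritic cell-like, macrophage-like, monocyte-like, ILC2-like and neutrophil-like clusters. They held 6552 B cells, 3356 dendritic cells, 1607 macrophages, 1312 monocytes, 4313 group 2 innate lymphoid cells (ILC2) and 4712 neutrophils. All own markers of each name were detected, except in ILC2, where 6 of 8 were. Of all barcodes in the macrophage cluster, 28.3% carried several hashtags and were left out. By immediate-early genes in T cells, the 30 hashtag groups fell into sets, 14 at 613.8 to 1443 CPM and 16 at 3281 to 6422 CPM. This split was found from the data and is not a group of the labels, so comparisons that depend on it are given with and without the 14 low groups. Reads of H2-DMb1 and H2-DMb2, and of H2-Eb1 and H2-Eb2, which are related copies, may be shared out uncertainly, and H2-DMa, as well as Cd74 (on chromosome 18), overlaps 1 other annotated gene on its own strand.

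Macrophages and dendritic cells carried the most class II transcripts, B cells less in sum, and monocytes fewer with a wide spread. The summed level of the 10 genes was 62379 ± 7885 CPM in macrophages, 55363 ± 6284 in dendritic cells, 31779 ± 2442 in B cells and 8160 ± 5581 in monocytes (mean ± SD, n = 8 libraries). It was 939 ± 1014 CPM in neutrophils and 563 ± 311 in ILC2, beside 531 ± 569 in CD8 T cells and 366 ± 207 in NK cells, which are not known to use the pathway. The 8 libraries are 8 conditions, so these SDs hold the differences between conditions, and no test was run between cell types.

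Among the I-A and I-E chains, H2-Aa stood at 10030 ± 1238 CPM in macrophages and 9924 ± 1163 in dendritic cells, and the order of these types changed between libraries, with macrophages higher in 5 of 8. In B cells it was 3261 ± 729 CPM, below dendritic cells in all 8 libraries without overlap of the ranges. In monocytes it was 1285 ± 934 CPM, between 353 in App chronic colitis and 2907 in WT acute colitis. H2-Ab1 followed the same order, at 8399 ± 1140 CPM in macrophages, 7705 ± 812 in dendritic cells, 2056 ± 374 in B cells and 913 ± 629 in monocytes. H2-Eb1 differed from both in that macrophages, at 10179 ± 1436 CPM, lay above dendritic cells, at 7282 ± 967 CPM, in all 8 libraries, and the ranges (8795 to 13466 and 5997 to 8532) did not overlap. Its level was 2344 ± 526.1 CPM in B cells and 790 ± 561 CPM in monocytes. These are levels of whole classes, and H2-Eb1 differed between the sub-clusters of dendritic cells described below. At 1000 UMIs per cell, 82.7% of macrophages, 83.0% of dendritic cells, 72.4% of B cells and 18.7% of monocytes held an H2-Aa UMI (means of 8 libraries).

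Cd74 was the most abundant of the genes in all of these types. Its level was 32286 ± 4085 CPM in macrophages, 28065 ± 3327 in dendritic cells, 22466 ± 1029 in B cells and 4638 ± 3286 in monocytes. B cells, which were far below the other 2 types for I-A, were thus closer to them for the invariant chain. The ranges of B cells (21133 to 24339) and dendritic cells (23917 to 33284) overlapped, although dendritic cells were higher in 8 of 8 libraries. The range of macrophages (27203 to 40855) lay above that of B cells. Ciita was low throughout. It reached 123 ± 20.9 CPM in dendritic cells, 86.3 ± 20.9 in macrophages, 72.7 ± 12.5 in B cells and 19.5 ± 19.6 in monocytes. Macrophages and B cells overlapped in Ciita, with macrophages higher in 5 of 8 libraries.

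The β chain genes of H2-DM split between B cells and myeloid types, while the α chain gene did not. H2-DMa, the common α chain, was highest in dendritic cells at 842 ± 69.3 CPM, followed by macrophages at 589 ± 47.1, B cells at 334 ± 32.0 and monocytes at 269 ± 74.4. H2-DMb1 followed the same order among myeloid cells, at 962 ± 75.1 CPM in dendritic cells, 733 ± 65.0 in macrophages and 227 ± 110 in monocytes, but it was 44.96 ± 13.9 CPM in B cells. Monocytes lay above B cells for H2-DMb1 in all 8 libraries, although they lay below them for H2-Aa in all 8. H2-DMb2 had the opposite pattern, with 556 ± 69.5 CPM in B cells, 129 ± 21.5 in dendritic cells, 26.0 ± 9.99 in macrophages and 6.995 ± 3.52 in monocytes. The first 3 of these types did not overlap in H2-DMb2.

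The H2-DO genes were highest in B cells. H2-Ob stood at 394 ± 78.2 CPM there, 134 ± 21.4 in dendritic cells, 25.6 ± 10.1 in macrophages and 6.63 ± 3.79 in monocytes, and B cells lay above dendritic cells in all 8 libraries. H2-Oa was nearly as high in dendritic cells, at 196 ± 23.0 CPM, as in B cells, at 249 ± 29.4 CPM, and B cells were higher in 6 of 8 libraries. Macrophages had 25.6 ± 6.25 CPM of H2-Oa and monocytes 5.398 ± 2.32. ILC2, at 109.1 ± 12.1 CPM, lay between dendritic cells and macrophages in all 8 libraries, without overlap with either.

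**Figure D1:**
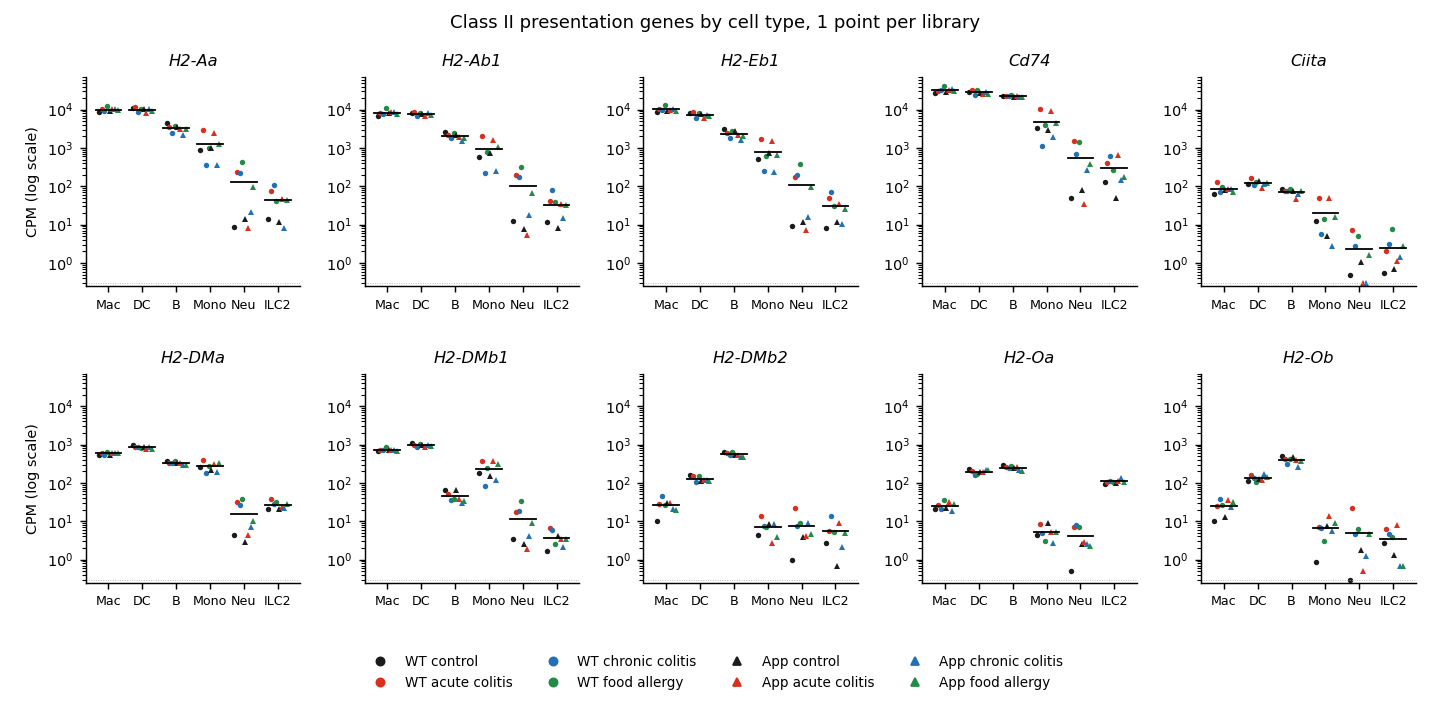
Level of each of the 10 genes (CPM, log scale) in macrophages (Mac), dendritic cells (DC), B cells (B), monocytes (Mono), neutrophils (Neu) and ILC2, with 1 point per library, circles for WT, triangles for App NL-G-F, colours for the treatment and a bar at the mean; values of 0 are drawn on the dotted line near the bottom. H2-DMb2 and H2-Ob are highest in B cells, H2-DMb1 is lower in B cells than in monocytes, and H2-Oa in ILC2 (94.3 to 133.2 CPM) lies above H2-Oa in macrophages.

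Ratios within a library, which do not depend on its depth, showed the same contrasts. H2-DMb2 stood at 13.1 ± 2.9 molecules per molecule of H2-DMb1 in B cells (8.37 to 16.8 over 8 libraries), 0.134 ± 0.0147 in dendritic cells, 0.0353 ± 0.0134 in macrophages and 0.0404 ± 0.0284 in monocytes. The lowest ratio of B cells was thus above the highest of the other 3 types, 0.153. Cd74 stood at 11.2 ± 1.9 molecules per molecule of H2-Ab1 in B cells, 3.64 ± 0.135 in dendritic cells, 3.85 ± 0.147 in macrophages and 5.29 ± 1.22 in monocytes. The ranges of dendritic cells and macrophages overlapped in this ratio. H2-Aa stood at 1.58 ± 0.120 molecules per molecule of H2-Ab1 in B cells, 1.29 ± 0.0398 in dendritic cells and 1.20 ± 0.0464 in macrophages. For the inhibitor against its target, H2-DMa stood at 1.34 ± 0.0632 molecules per molecule of H2-Oa in B cells, 4.33 ± 0.514 in dendritic cells, 23.9 ± 4.57 in macrophages and 56.2 ± 21.4 in monocytes. ILC2, at 0.246 ± 0.0597, had fewer H2-DMa than H2-Oa molecules.

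**Figure D2:**
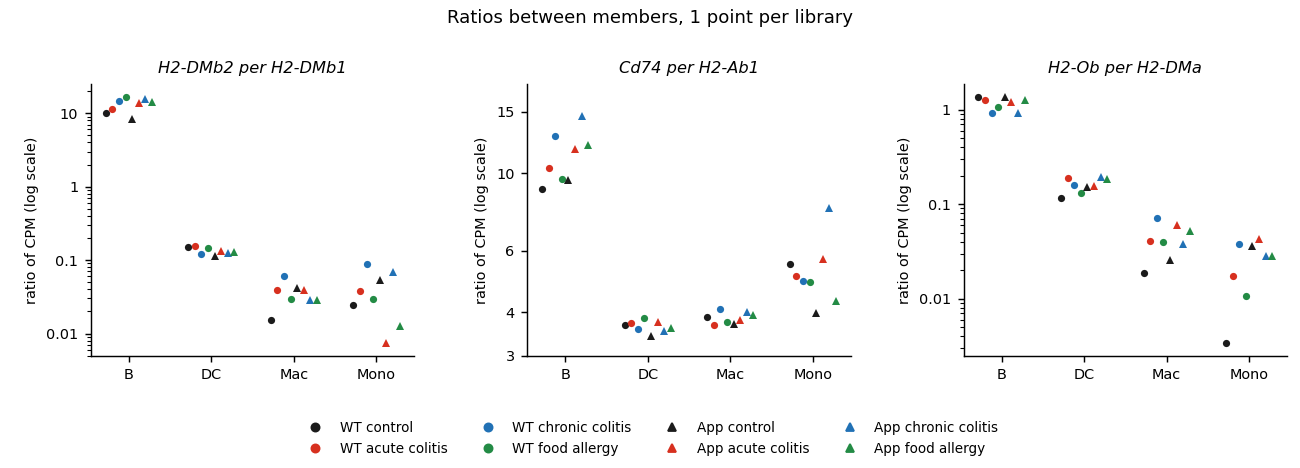
Ratio of CPM (log scale) of H2-DMb2 to H2-DMb1, Cd74 to H2-Ab1 and H2-Ob to H2-DMa in B cells, dendritic cells (DC), macrophages (Mac) and monocytes (Mono), with 1 point per library. The B cells of all 8 libraries lie above the other types in each panel, between 8.37 and 16.8 for H2-DMb2 per H2-DMb1 and between 9.03 and 14.6 for Cd74 per H2-Ab1.

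Within dendritic cells the levels differed between sub-clusters, which were found without the 10 genes. The largest, of 1045 cells with type 1 conventional markers such as Xcr1, had 12639 CPM of H2-Aa, 167 of Ciita and 221 of H2-Ob (UMIs pooled over libraries). That of 469 cells led by Mgl2 and Cd209a, with type 2 markers, had the highest H2-Aa, at 16324 CPM, and the highest Cd74, at 47915 CPM, with less H2-Ob, at 107 CPM. Plasmacytoid dendritic cells (622 cells, led by Klk1 and Siglech) had 1842 CPM of H2-Aa, between 1458 and 2728 over the 8 libraries, and 15.5 CPM of Ciita. Their H2-Oa, at 147 CPM, was nonetheless above their H2-Ob, at 13.5 CPM. H2-Eb1 was at 9115 CPM in the largest sub-cluster, 13374 in that with type 2 markers and 823 in plasmacytoid cells. The second of these lay above the mean of macrophages as a class, 10179 CPM, and the others below it. A sub-cluster of 408 cells led by Prtn3 and Apod, which the naming rule placed with monocytes, had 2815 CPM of H2-Aa with 772 CPM of H2-DMa. Migratory dendritic cells (100 cells, led by Fscn1 and Ccr7) had 7659 CPM of H2-Aa with 83.8 CPM of H2-DMa, 35.3 of H2-DMb1 and 17.6 of Ciita, while plasmacytoid cells had 432 CPM of H2-DMa and 249.9 of H2-DMb1. The H2-DM genes of migratory cells were thus below, and their I-A above, those of plasmacytoid cells. A sub-cluster of 160 cells with type 1 markers and few UMIs per cell (median 2370) had the highest Ciita, at 482 CPM, and was led by Egr3, Fosb and Malat1. Sub-clusters led by T cell genes (88 cells) and B cell genes (143 cells) were part of the dendritic class. Without them the summed level was 55857 ± 6744 CPM.

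Macrophages varied likewise. The largest sub-cluster (548 cells, led by C4b and Cbr2) had 9896 CPM of H2-Aa, 29005 of Cd74 and 96.2 of Ciita, that led by Ear2 and Lgals3, which the naming rule placed with type 2 dendritic cells (310 cells), 13886 CPM of H2-Aa, and that led by Mmp13, Il1b and interferon-induced genes (276 cells) 14013 CPM. The sub-cluster with Cd209f, Lyve1 and Cd163, genes known from macrophages of the brain's borders, had a lower H2-Aa, at 4501 CPM, with 11502 CPM of Cd74 and 310 of H2-DMb1 (192 cells). H2-Oa was 1.48 CPM in the first and 1.84 CPM in the last of these, while it reached 122 CPM in 29 cells led by B cell genes. Leaving out the 3 sub-clusters led by T cell, B cell or neutrophil genes (229 of 1607 cells) raised the summed level of the 10 genes from 62379 to 71473 ± 7611 CPM. That led by neutrophil genes (69 cells, S100a9 and S100a8) also had the most P2ry12 and Tmem119, genes known from microglia, at 729.8 and 588.4 CPM, against at most 101.9 and 109.2 in the other sub-clusters.

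**Figure D3:**
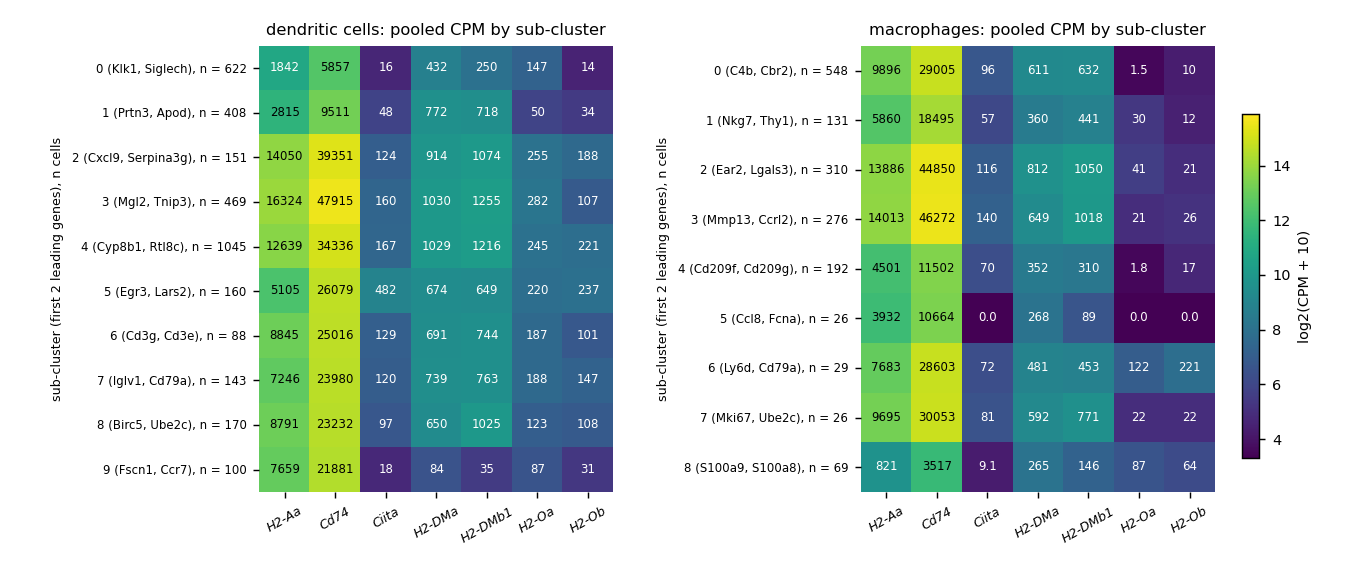
Pooled level (CPM, printed in each cell; colour, log2 of CPM + 10) of 7 of the genes in the sub-clusters of dendritic cells and macrophages, each row named by its first 2 leading genes and its number of cells. Rows 0 (plasmacytoid) and 9 (migratory) of the dendritic cells are low in Ciita, at 15.5 and 17.6 CPM, but differ in H2-Aa (1842 and 7659 CPM) and in H2-DMa (432 and 83.8 CPM).

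ILC2 and neutrophils were compared with CD8 T cells and NK cells, since free RNA and doublets give class II UMIs in cells that do not make them. With each cell thinned to 1000 UMIs, 1.80% of ILC2 held an H2-Aa UMI (0.481 to 3.80% over 8 libraries), beside 2.19% of CD8 T cells (0.462 to 5.56%) and 1.58% of NK cells (0.735 to 2.76%). The share in ILC2 was at this background. Without thinning the shares were 3.597% in ILC2, 3.601% in CD8 T cells and 3.7% in NK cells, at median depths of 2002.5 to 3329, 2492 to 3762 and 2725 to 3904 UMIs per cell. The H2-Aa UMIs of ILC2 were concentrated: 30 of 4313 cells had at least 5, held 68.7% of them, and 66.7% of these cells held a UMI of Cd79a, Cd79b or Ms4a1, against 2.50% of ILC2 with no H2-Aa UMI. The ambient profile of each library, scaled to the type, gave 36.1% of its H2-Aa level in the mean (5.29 to 83.4%), against 0.224% in B cells and 7.52% in monocytes (0.266 to 45.9%). H2-Aa in ILC2 was higher in the high immediate-early groups in 7 of 7 libraries, and H2-Oa in 4 of 7.

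H2-Oa in ILC2 was above the background. WT control had 94.3 CPM, WT acute colitis 104.4, WT chronic colitis 111.9 and WT food allergy 108.6. Of the App NL-G-F libraries, control had 96.9 CPM, acute colitis 115.1, chronic colitis 133.2 and food allergy 108.6. All 8 values lay above those of CD8 T cells (5.99 to 23.9 CPM, mean 12.8) and of NK cells (10.3 to 24.8 CPM, mean 15.6). At 1000 UMIs per cell, 11.2% of ILC2 held an H2-Oa UMI (8.77 to 15.1%), against 0.940% of CD8 T cells (0.281 to 2.22%) and 1.14% of NK cells (0.172 to 1.89%), and unthinned 25.8, 3.46 and 4.25%. H2-Ob, whose product pairs with that of H2-Oa, was at 3.51 ± 2.64 CPM in ILC2, beside 7.70 ± 4.92 in CD8 T cells and 3.27 ± 2.93 in NK cells. H2-Oa without H2-Ob thus stood in a cell type in which H2-Aa was at background. Basophils (366 cells, 5 libraries) also had H2-Oa, at 166 CPM, with 15.2 CPM of H2-Aa and 46.2 of H2-Ob.

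Neutrophils had 129 ± 152 CPM of H2-Aa, and the highest library stood 50.8 times above the lowest, the widest range of the 6 types. WT control had 8.44 CPM, WT acute colitis 239.2, WT chronic colitis 218.2 and WT food allergy 424.3, and the App NL-G-F libraries 14.1, 8.36, 20.9 and 98.7 CPM in the same order. WT food allergy was highest and both controls and App acute colitis lowest. H2-Aa also differed by immediate-early set, at a mean of 132.9 CPM in 16 high groups and 14 in 7 low groups. It was higher in the high groups in 4 of 4 libraries. The part of the sets in the order of the libraries was not tested. At 1000 UMIs per cell the share with an H2-Aa UMI was 18.6% in WT food allergy, 5.92% in WT acute colitis and at most 2.74% in the others. In WT control it was 0 of 208 cells, whose upper limit at that depth is 1.44%, and unthinned 5 of 213 cells (2.35%) held one. Of all neutrophils, 154 of 4712 had at least 5 H2-Aa UMIs and held 92.5% of them. Among these 154, 36.4% held a B cell gene, 35.1% a dendritic cell gene (Flt3, Xcr1, Cd209a or Siglech) and 27.3% a macrophage gene (C1qa, C1qb or C1qc), against 2.62, 0.639 and 1.67% of neutrophils with no H2-Aa UMI. Summed B cell markers in neutrophils ranged from 0.993 to 533.1 CPM over libraries and macrophage markers from 17.8 to 511.2 CPM. The ambient profile, scaled to neutrophils by genes that they should lack and that doublets also carry, gave 82.8% of their H2-Aa level in the mean (10.3 to 247.6%), and 79.4 ± 128 CPM were left after its subtraction. In WT acute and App chronic colitis it gave more than the level measured, while in WT food allergy it gave 18.1%, leaving 347.5 CPM. The part of the cells with genes of other lineages in the neutrophil values was not tested.

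**Figure D4:**
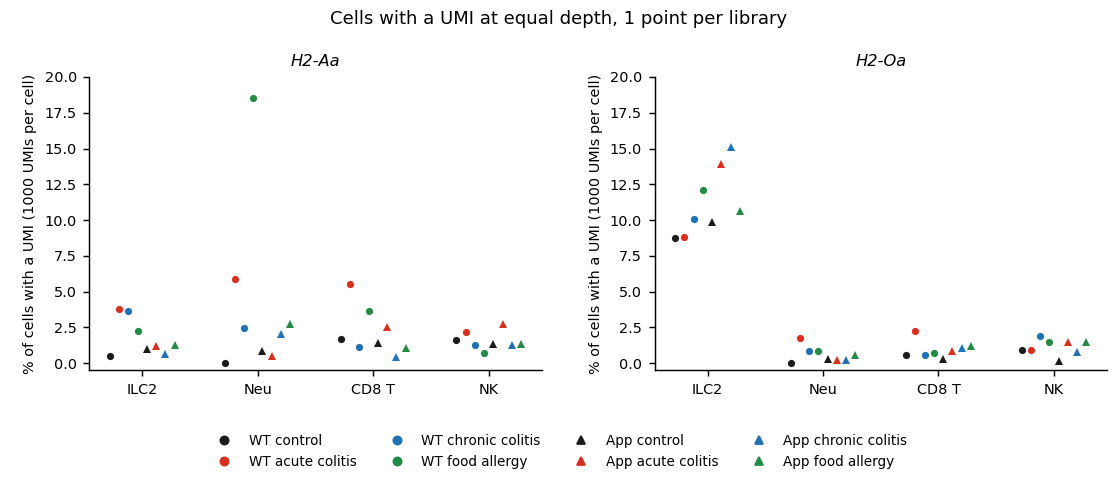
Share of cells with a UMI of H2-Aa (left) or H2-Oa (right) after thinning each cell to 1000 UMIs, in ILC2, neutrophils (Neu), CD8 T cells and NK cells, with 1 point per library. ILC2 stand apart for H2-Oa, at 8.77 to 15.1%, but not for H2-Aa, and WT food allergy is the highest neutrophil value for H2-Aa, at 18.6%.

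Other cell types gave parts of the pathway. Plasma cells (922 cells) had 5156 CPM of Cd74 but 196 of H2-Aa and 1.91 of Ciita, and developing B cells (4162 cells) 1168 CPM of Cd74 and 226 of H2-Aa. Neutrophil precursors (2288 cells) had 150.4 CPM of H2-DMa and 70.0 of H2-DMb1 with 30.2 of H2-Aa, and haematopoietic progenitors (738 cells, 7 libraries) 125 CPM of H2-DMa. H2-Aa in the progenitors was 68.4 CPM. The mean of H2-DMa was thus above that of H2-Aa in both immature types, the reverse of the order in dendritic cells, macrophages and B cells. In the progenitors H2-Aa ranged from 4.74 to 287.9 CPM and H2-DMa from 95.8 to 155.9, so this order did not hold in every library. The levels of these types are means of 8 libraries where no other number is given.

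Over 141 sums of a cell type in a library, the Pearson correlation of log2(CPM + 10) between H2-Aa and the other genes was 0.993 for H2-Eb1, 0.978 for H2-Ab1, 0.962 for Cd74 and 0.921 for Ciita, and 0.818 for H2-DMa, 0.805 for H2-DMb1, 0.768 for H2-DMb2, 0.621 for H2-Ob and 0.513 for H2-Oa. The points share libraries and free RNA and fall into a few cell types, so these are descriptions. Among the 14236 genes ranked, the 5 outside the 10 most like H2-Aa were Cd83 (0.897), Tbc1d9 (0.852), Plekho1 (0.844), Fgd2 (0.841) and Scimp (0.831). Those most like H2-Ob were Siglecg (0.794), Wdfy4 (0.784), A530040E14Rik (0.759), Cd180 (0.756) and Rnase6 (0.747), after its fellow member H2-DMb2 (0.829). Cd83 encodes a surface protein of activated dendritic cells and B cells, and Siglecg an inhibitory receptor of B cells.

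Conditions were compared over hashtag groups with at least 20 cells of a type, each of which stands for a sample, since the protocol gave each sample its own hashtag. The labels do not tie hashtags to mice, so p-values measure the spread between these groups. In B cells and dendritic cells 4 groups of App chronic colitis entered the fit. That is more than the number of replicates in the paper for this condition, so some of them may share a mouse, and p-values that treat them as separate may be too small. The fits with the high immediate-early set alone held 2 groups of App chronic colitis. UMIs were summed per group and tested with edgeR's quasi-likelihood test, with Benjamini-Hochberg adjustment over all genes tested and a threshold of 0.05 for a call. For each type, 4 comparisons were made: any difference across the 8 conditions, App acute colitis against App control, App control against WT control, and the interaction of genotype and acute colitis.

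Monocytes were the type in which class II genes were called. H2-DMb1 (adjusted p = 0.0144) and Ciita (adjusted p = 0.0452) differed across the 8 conditions by edgeR's test, 2 of 7 members tested over 17 hashtag groups, where 4.68% of 5660 genes were called. H2-DMb2, H2-Oa and H2-Ob were too low to be tested there. In acute colitis the groups of H2-DMb1 stood at 339 and 404 CPM in WT and 663 and 295 in App NL-G-F mice. Controls had 199 and 146 CPM in WT and 69.2, 241 and 152 in App NL-G-F mice, chronic colitis 71.5 and 118 CPM in WT and 129 and 130 in App NL-G-F mice, and food allergy 236 and 251 CPM in WT and 326 and 377 in App NL-G-F mice. The lowest acute value, 295, lay above all values of control and chronic colitis but below both App food allergy groups. Ciita was at 37.0 and 76.8 CPM in WT acute colitis and at 98.0 and 41.1 in App acute colitis, and between 0 and 19.9 CPM in the other 13 groups, 2 of which were at 0 (limits of 10.3 and 9.44 CPM for 3 UMIs). The acute groups held only 13, 15, 13 and 6 UMIs of Ciita.

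The other 5 genes tested were not called. H2-Aa was at 2022 and 3507 CPM in WT acute colitis and 4832 and 1954 in App acute colitis. In control it was 1019 and 684 CPM in WT and 72.4, 2927 and 655 in App NL-G-F mice, in chronic colitis 142 and 803 and then 345 and 500, and in food allergy 836 and 1223 and then 1364 and 1823. The groups overlapped through 1 App control group at 2927 CPM. The adjusted p across conditions by edgeR was 0.243 for H2-Aa, 0.2001 for H2-Ab1, 0.243 for H2-Eb1, 0.153 for Cd74 and 0.142 for H2-DMa, and 5 of the 7 genes tested had an unadjusted p under 0.05. DESeq2 also called H2-DMb1 and Ciita, and no others.

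**Figure D5:**
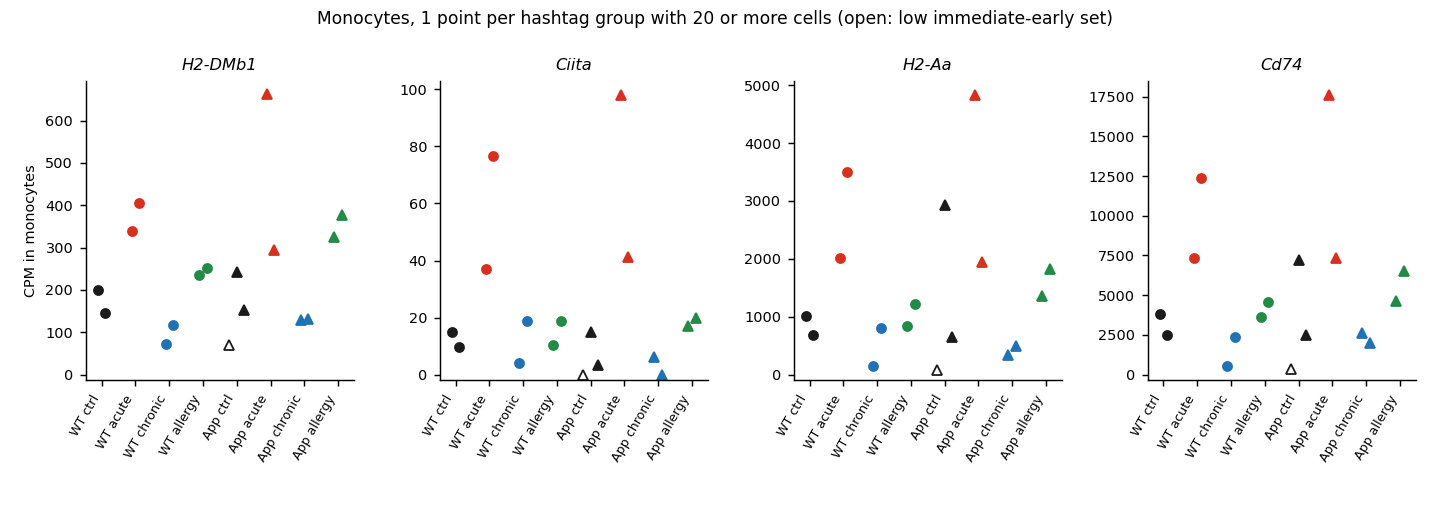
Level (CPM) of H2-DMb1, Ciita, H2-Aa and Cd74 in monocytes, with 1 point per hashtag group of at least 20 cells, circles for WT and triangles for App NL-G-F, by condition; the open symbol is the group of the low immediate-early set. The 4 acute colitis groups are highest for Ciita, at 37.0 to 98.0 CPM, and the open symbol is the lowest for H2-DMb1, H2-Aa and Cd74, at 69.2, 72.4 and 384 CPM.

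Between App acute colitis and App control, none of the 7 members was called in monocytes by edgeR (0.141% of all genes were), 4 had an unadjusted p under 0.05, and DESeq2 called H2-DMb1. The log2 fold change was 3.57 ± 0.84 for Ciita (adjusted p = 0.0936), 1.58 ± 0.39 for H2-DMb1 (adjusted p = 0.111), 1.83 ± 0.73 for Cd74 (adjusted p = 0.382), 0.80 ± 0.31 for H2-DMa (adjusted p = 0.371) and 1.42 ± 0.85 for H2-Aa (adjusted p = 0.609; all ± SE). The median over the 7 was 1.42, against -0.038 over all genes tested. For App control against WT control, 0 of 7 were called and 0 had an unadjusted p under 0.05, with 2.93% of genes called, and for the interaction 0 of 7 and 0, with 0.972%. DESeq2 called none of the 7 in either. In simulated counts for App acute colitis against App control over 5660 genes, 14% of planted 2-fold and 59% of planted 4-fold changes were called.

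The monocyte values rested on few cells, 25 to 52 in each acute group, and on single groups. The low App control group (hashtag 5, 49 cells) had 72.4 CPM of H2-Aa, the smallest value of all 17. It was the only low-set group of monocytes, so the fit with the high set alone is the fit without it. With the high immediate-early set alone (16 groups) all 7 members were called across conditions, where 18.6% of genes were, and Ciita (3.20 ± 0.78, adjusted p = 0.0239) and H2-DMb1 (1.28 ± 0.28, adjusted p = 0.00999) between App acute colitis and App control by edgeR, where 3.09% were. When each of the 17 groups was left out in turn, H2-DMb1 kept its call across conditions in 16 fits (adjusted p 1.075e-05 to 0.0589, lost without WT chronic colitis hashtag 6) and Ciita in 3 (adjusted p 0.00455 to 0.133; without App control hashtag 5 or 6 or WT chronic colitis hashtag 7). With at least 50 cells per group, Ciita had an adjusted p of 0.441. Markers of other lineages moved among these monocytes. Of the 212 with at least 5 H2-Aa UMIs, 36.3% held a macrophage gene, 17.5% a dendritic cell gene and 15.6% a B cell gene, against 6.57, 14.4 and 9.80% of those with none. The 11 macrophage markers summed to 3738 CPM in WT acute colitis and 3602 in App acute colitis, within the range of the other libraries (1187 to 6452), and 1 to 3 of them were at 0. The 8 monocyte markers summed to 7094 CPM in WT acute and 7403 in App acute colitis, the lowest values, against up to 16090 in WT control. The macrophage markers were lower in acute colitis than in control (6452 CPM in WT and 3979 in App control). The lists of B cells and of the dendritic types were higher in acute colitis than in control. The 8 B cell markers summed to 365.3 CPM in WT acute and 182.0 in App acute colitis (0 and 2 of them at 0), against 9.46 and 35.3 in the controls (6 and 2 at 0), but they were highest in App chronic colitis, at 376.7 CPM, where H2-Aa was lowest. The 9 plasmacytoid markers stood at 611.1 and 532.6 CPM in WT and App acute colitis, 301.1 and 330.7 in the controls and 386.9 to 683.1 in the other libraries. The 9 markers of type 2 dendritic cells were highest in acute colitis, at 425.9 and 409.5 CPM, against 310.5 to 350.1 elsewhere, and the 8 of type 1 stood at 261.4 and 275.7 CPM, against 148.4 and 186.2 in the controls and 236.6 to 266.3 in the others. The ambient profile gave 0.266 to 45.9% of the H2-Aa level of monocytes over libraries, and 191 to 2707 CPM were left after its subtraction. The parts of these markers and of free RNA in the result were not tested.

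Of 27 pathway genes around the 10, 21 were tested in monocytes, from lists of class II transcription, antigen and invariant chain processing, class II turnover, costimulation and the interferon gamma response. Of these, 3 were called across conditions by edgeR: Ctsl, which encodes cathepsin L (adjusted p = 0.00257, 42.8 to 475 CPM over libraries), Ctsd, which encodes cathepsin D (adjusted p = 0.0224, 198 to 469 CPM), and Cd9, a tetraspanin (adjusted p = 0.0174, 9.46 to 72.3 CPM). None of the 6 interferon gamma response genes was called, in any of the 4 types and 4 comparisons, nor was any gene of the lists in B cells, dendritic cells or macrophages. The highest gene of each list was Ctsb at 2226 ± 493.4 CPM in macrophages, Nfyb at 58.6 ± 8.89 CPM and Cd40 at 193 ± 33.5 CPM in B cells, Ifngr1 at 601 ± 136 CPM in monocytes, Cd9 at 580.2 ± 103 CPM in neutrophils and H2-Eb2, a class II β gene like H2-Eb1, at 47.2 ± 17.1 CPM in B cells.

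In B cells no member was called in any comparison by edgeR or DESeq2. Across conditions (27 groups, 1.8% of 7714 genes called) 4 members had an unadjusted p under 0.05, H2-Aa, H2-Ab1, H2-Eb1 and H2-DMb1, with H2-Aa at an adjusted p of 0.328. For App acute colitis against App control (0.0519% called) only Ciita had such a p, with a log2 fold change of -0.60 ± 0.24 and an adjusted p of 0.9999. For App control against WT control (1.83% called) and the interaction (0.804% called) there was none. In simulated counts for App acute colitis against App control over 7714 genes, planted changes of 2-fold were called in 59% of genes and changes of 4-fold in 88%. Cd74 varied least, between 21133 and 24339 CPM over libraries, while H2-Aa ranged from 2136 CPM in App chronic colitis to 4413 in WT control.

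With the high immediate-early set alone (16 groups, 6.59% of genes called), 6 of 10 members were called in B cells across conditions by edgeR: H2-Aa (adjusted p = 0.000744), H2-Ab1 (0.00134), H2-Eb1 (0.00136), H2-DMb2 (0.00538), H2-DMb1 (0.00985) and Ciita (0.0307). This set was chosen after the data had been seen. The H2-Aa of the WT groups was then 4768 and 4471 CPM (control), 3262 and 3859 (acute colitis), 2528 and 2495 (chronic colitis) and 3587 and 4788 (food allergy). That of the App NL-G-F groups was 3321 and 3364 CPM (control), 2181 and 2301 (acute colitis), 1896 and 2422 (chronic colitis) and 1656 and 2714 (food allergy). Both acute and both chronic colitis groups of either genotype lay below both controls of the same genotype, as did both App food allergy groups, while the WT food allergy groups did not. The share of all genes whose groups separate in this way was not counted. Between App acute colitis and App control in this set, no member was called by edgeR. The log2 fold change of H2-Aa was -0.62 ± 0.18 (SE, adjusted p = 0.156). In the low set alone (8 groups of 4 conditions, 1.02% called) no member was called and none had an unadjusted p under 0.05, and DESeq2 was not run on it. Within libraries, H2-Aa in the high groups was above the low groups in 2 of 7.

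In dendritic cells no member was called either, by edgeR or DESeq2, and none had an unadjusted p under 0.05. The share of all genes called was 1.03% across conditions, 0% for App acute colitis against App control, 1.19% for App control against WT control and 0.572% for the interaction. The spread between groups was wide, so that the log2 fold change of H2-Aa between App acute colitis and App control was 0.25 ± 0.65. The groups differed by immediate-early set, and all 10 genes were higher in the high groups in 6 of 6 libraries, by a mean log2 difference of 1.33 for H2-Aa and 0.49 for H2-Oa. The sub-clusters differed too, and their part in the values was not tested. Plasmacytoid cells were 63.4% of low-set and 8.24% of high-set dendritic cells, from 27.3 to 70.9% in the 9 low groups and from 2.33 to 21.2% in the 16 high groups. Within the largest type 1 sub-cluster, H2-Aa was at 13667 CPM in low-set and 12598 in high-set cells, and within plasmacytoid cells at 1680 and 2101. Within the sub-cluster led by Prtn3 and Apod, it was at 1416 CPM in 128 low-set and 3400 in 280 high-set cells, so that the sets differed there within a sub-cluster too. With the high set alone H2-Ob was called across conditions (adjusted p = 0.0177 by edgeR, 9.4% of genes called), and with the low set alone (6 groups of 3 conditions, 0.198% called) no member was, with 2 at an unadjusted p under 0.05.

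In macrophages no member was called by edgeR or DESeq2, and none had an unadjusted p under 0.05, over 9 members tested (H2-Oa was too low) and 17 groups. The shares of all genes called were 1.12% across conditions, 0.24% for App acute colitis against App control, 0.38% for App control against WT control and 0.1% for the interaction. The log2 fold change of H2-Aa between App acute colitis and App control was 0.67 ± 0.85. Of the App control groups, 1 of 27 cells, of the low set, had no UMI of H2-Aa (a limit of 57.7 CPM for 3 UMIs) and 770 CPM of Cd74, while the other 2 had 10878 and 7692 CPM of H2-Aa. In that group 59.3% of cells were in the sub-cluster led by S100a9 and S100a8, against 0 to 5.26% in the other 16, the one also high in the microglial genes P2ry12 and Tmem119, and its part in the value was not tested. With the high set alone (5.87% of genes called) no member was called in macrophages and 4 had an unadjusted p under 0.05, while with at least 50 cells per group (12 groups of 6 conditions, 5.46% of genes called) Cd74, H2-Aa, H2-Ab1 and H2-Eb1 were called.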

How the data were processed

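The authors deposited, for each of the 8 libraries, unfiltered Cell Ranger matrices of UMI counts per gene and hashtag and barcode, made on mm10 (version 4 per the file headers, 6.1.2 per the submitters' processing notes). From these counts, cells were called anew by an order-of-magnitude cutoff for 3000 expected cells and, from 500 UMIs, by a test against the ambient profile of barcode ranks 45000 to 90000 (1000 simulations, false discovery rate 0.01), and kept if 200 or more genes were detected and no more than 5% of UMIs were mitochondrial. A hashtag was counted as present from the lowest point between its background and positive modes in the library, and from 50 UMIs at the least (cutoffs of 50.0 to 388.0 UMIs). Clusters came from scanpy 1.11.5 (2000 variable genes, 30 components, 20 neighbours, resolution 0.5), with the class II genes left out. Scrublet marked at most 0.459% of a library and did not work as a doublet filter, so cells with several hashtags were left out. Hashtag groups with at least 20 cells were tested with edgeR 4.0.16, and DESeq2 1.42.0 as an alternative, after a test on simulated counts. Intervals and limits of 3 counts cover counting error only. The 10 genes, the pathway and marker lists and the split by immediate-early genes were chosen with earlier results of these data known. Named were the 10 genes, the pathway genes called, the highest gene of each pathway list, and the 5 genes most like H2-Aa and H2-Ob. The immediate-early sets and the sub-clusters left out were added as alternatives after the data had been seen.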

Additional observations from a re-analysis of the deposited data

Results flagged for a closer look

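In conditions with 4 hashtag groups, a group was tested for standing apart from the other 3 by Dixon's criterion at the 95% level, which chance alone meets in about 1 in 20 tests; 6 of 70 did. All 6 belonged to the low immediate-early set. Groups were taken as separate samples, although App chronic colitis has more hashtag groups than replicates in the paper, so that some may share a mouse. In B cells of App chronic colitis, hashtag 5 (37 cells) had 127.3 CPM of Ciita against 48.99 to 62.1 in the others. In B cells of App control, hashtag 5 (302 cells) had 3183 CPM of H2-Eb1 against 2404 to 2508. The other 4 were the same group of WT control dendritic cells, hashtag 5 (87 cells), which had 2866 CPM of H2-Ab1 against 8597 to 9695, 2800 CPM of H2-Eb1 against 8737 to 9882, 12313 CPM of Cd74 against 32187 to 36171, and 385.8 CPM of H2-DMb1 against 1217 to 1278. Of that group's cells, 64.4% were in the plasmacytoid sub-cluster, against 4.73 to 27.3% of the other 3. The part of this make-up in the values was not tested.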

How the results depend on the processing

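No paired analysis was possible because each condition is 1 library, the labels give every sample the same replicate number and hashtags are not tied to mice. Among alternatives other than leaving out a group, 204 results were kept, 13 levels moved and 13 counts of members called rose. A level or share was kept if it moved by less than 1 SD. A count of members called was kept if it was equal or nearly so, whichever genes were called. The cause was not tested. The summed level in B cells was 26303 CPM with the order-of-magnitude cutoff for cells. In ILC2 it was 1312 CPM, where 9.521% of cells had an H2-Aa UMI. Cells of this cutoff were not thinned, and in the main set the share was 3.597%, or 1.797% when thinned. With every cell called, whatever its hashtags, the summed level was 52087 CPM in macrophages, 968.6 in ILC2 and 1995 in neutrophils. In macrophages it was 71473 without the sub-clusters of other lineages. The share after subtraction of the ambient profile has no value. Across conditions, members called were 5 in B cells and 7 in monocytes with no filter on low counts. With the immediate-early set as a covariate, 7 were called in monocytes. With at least 50 cells per group there were 4 in macrophages and 4 in monocytes. The high set alone gave 6 in B cells, 1 in dendritic cells and 7 in monocytes. In monocytes the low set was only App control hashtag 5, so the high set alone is the fit without that group. The covariate there marks only that group. For App acute colitis against App control in monocytes, DESeq2 called 1, the fit with no filter 6, the covariate 2 and the high set 2; for App control against WT control the fit with no filter called 1. With each of the 17 groups left out in turn, monocytes had 0 to 7 called across conditions (7 without App control hashtag 5, 4 without hashtag 6, 0 without WT chronic colitis hashtag 6). For App acute colitis against App control they had 0 to 2. In the other types only groups of App control, App acute colitis and WT control were left out. These fits (11 in B cells, 11 in dendritic cells and 7 in macrophages) had 0 called, and leaving out other groups of these types was not tested. Over all genes across conditions, calls rose from 139 to 678 in B cells, 56 to 498 in macrophages and 265 to 1157 in monocytes with no filter, and to 560, 303 and 1061 with the high set (dendritic cells 103 to 869), 288 and 1058 with the covariate (dendritic cells 246) and 355 and 758 with 50 cells; the low set gave 63 in B cells and 9 in dendritic cells. Small counts moved most in the other comparisons, as in monocytes for App acute colitis against App control (8, then 38 by DESeq2, 185 with no filter, 188 and 176).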

Other observations

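Types outside the 6 held class II transcripts with a wide spread between libraries. Gamma-delta T cells (1580 cells) had 236 CPM of H2-Aa in the mean of 8 libraries, from 75.0 to 407 CPM. Mast cells (214 cells, 6 libraries) had 516 CPM, from 0 to 2745 CPM, and fibroblasts (261 cells, 5 libraries) 316 CPM, from 65.9 to 1159 CPM. H2-DMa in the same types was 27.0, 33.5 and 36.9 CPM, near its level in CD8 T cells, 28.3 CPM. Migratory dendritic cells of the first clustering (122 cells, 3 libraries) had 8837 CPM of H2-Aa with 151 CPM of H2-DMa and 54.4 of H2-DMb1. The share of the macrophage sub-cluster with Cd209f, Lyve1 and Cd163, which was lower in H2-Aa, was 25.2% in WT acute colitis and 19.9% in App acute colitis, against 1.55 to 7.46% in the other libraries.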
